A study of Mus musculus with 18 samples.

Results

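The genes examined were 5 that make, store, take up and break down the inhibitory transmitter GABA, namely *Gad1*, *Gad2*, *Slc32a1*, *Slc6a11* and *Abat*. They were taken by symbol from the 53468 genes of the deposited count table, and all 5 were found and passed the filter on low counts in every comparison. The counts came from poly(A) RNA of dissected forebrain, midbrain and hindbrain of male mice at P25. In these brains 3 mice carried Fmr1CRE, a single-nucleotide change of a cis-regulatory element (CRE) assigned to *Fmr1*, and 3 were wild-type animals of the same litter. The change had been knocked in by CRISPR/Cas9 on a C57BL/6 background at the mouse position orthologous to a human variant, several independent lines had been established, and the sources used here do not say which line or lines these mice came from. As male mice, the mutants were hemizygous for the X-linked change. Each of the 6 mice gave 1 library per region, so there were 18 libraries, 3 in each combination of region and genotype, and the regions of a mouse were not independent of each other.

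GABA is made from glutamate by glutamate decarboxylase, which exists as the products of *Gad1* and *Gad2*. The vesicular transporter encoded by *Slc32a1* loads GABA into synaptic vesicles, and it also loads glycine in glycinergic neurons. After release GABA is cleared by plasma membrane transporters, among them the product of *Slc6a11*, which is found mainly on astrocytes, and it is then broken down by GABA transaminase, the product of *Abat*, in neurons and glia.

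In GRCm38 coordinates, *Gad1* (ENSMUSG00000070880) lies on the plus strand of chromosome 2 from 70553072 to 70602014 and *Gad2* (ENSMUSG00000026787) on the plus strand of the same chromosome from 22622205 to 22693874. *Slc32a1* (ENSMUSG00000037771) is also on the plus strand of chromosome 2, from 158610767 to 158615748. *Slc6a11* (ENSMUSG00000030307) lies on the plus strand of chromosome 6 from 114131241 to 114249952 and *Abat* (ENSMUSG00000057880) on the plus strand of chromosome 16 from 8513429 to 8621568. All 5 are annotated as protein coding. Of the 31-base sequences of *Gad1* transcripts, 3.97% also occurred in transcripts of another gene, most of them in the pseudogene *Gad1-ps*. That share was 1.75% for *Gad2*, 0.18% for *Abat* and 0 for *Slc32a1* and *Slc6a11*. The antisense gene *Gad1os*, whose reads cannot be told apart from those of *Gad1* where the transcripts overlap if strand was not used in counting, held counts equal to 0.07% of those of *Gad1*.

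RefSeq start regions on GRCm38.p6 were at hand for 4 of the 5 genes. Those of *Gad1* (chr2:70561879-70562128), *Gad2* (chr2:22622077-22622326) and *Slc6a11* (chr6:114130991-114131240) are given as the 250 bases before the start, on the plus strand, because these 3 genes carried the differences between regions described here. The starts that RefSeq gives for *Gad1* and *Gad2* lie inside the genes as placed above. The *Gad1* sequence is therefore wholly inside its gene, and the *Gad2* sequence begins before its gene and ends inside it. Capitals mark the core promoter motif TATAAA and the motif GGGCGG, which binds Sp-family factors, on either strand. The motif TAATTA, the core bound by many homeodomain proteins, was looked for on either strand as well.
*Gad1*: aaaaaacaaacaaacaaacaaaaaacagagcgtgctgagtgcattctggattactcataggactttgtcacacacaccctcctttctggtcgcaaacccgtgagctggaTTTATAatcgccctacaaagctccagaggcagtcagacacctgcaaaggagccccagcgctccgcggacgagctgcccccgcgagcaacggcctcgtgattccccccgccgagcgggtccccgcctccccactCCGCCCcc
*Gad2*: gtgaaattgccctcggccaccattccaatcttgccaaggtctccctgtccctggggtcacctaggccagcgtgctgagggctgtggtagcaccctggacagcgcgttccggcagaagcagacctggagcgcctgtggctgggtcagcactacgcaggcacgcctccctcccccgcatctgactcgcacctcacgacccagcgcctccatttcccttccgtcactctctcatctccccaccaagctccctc
*Slc6a11*: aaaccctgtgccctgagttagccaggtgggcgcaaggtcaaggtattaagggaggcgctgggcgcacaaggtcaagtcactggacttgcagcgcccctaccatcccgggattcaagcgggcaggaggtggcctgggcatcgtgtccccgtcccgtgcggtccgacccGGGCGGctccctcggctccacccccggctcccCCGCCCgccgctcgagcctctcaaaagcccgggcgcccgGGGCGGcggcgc

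The *Gad1* sequence held 1 TATAAA on the minus strand, 141 to 136 bases before the start, and 1 GGGCGG on the minus strand close to the start, 8 to 3 bases before it. The *Slc6a11* sequence held 3 GGGCGG, 2 on the plus strand and 1 on the minus strand, and in the *Gad2* sequence none of the 3 letter patterns occurred. Over 32851 RefSeq start regions of the same 250-base length, 12.4% held TATAAA, 32.7% held GGGCGG and 4.84% held TAATTA. The GC content was 58.0% for *Gad1*, 64% for *Gad2* and 71.2% for *Slc6a11*.

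Summed gene counts ran from 22455512 to 28061185 over the libraries. Levels are given as CPM, the counts of a gene scaled to a common library size after TMM normalization, which balances libraries of different composition. *Fmr1* itself lay between 51.1 and 83.4 CPM in all 18 libraries, and its means in Fmr1CRE and wild-type mice were 75.8 and 77.7 (forebrain), 68.1 and 67.7 (midbrain) and 64.7 and 58.2 (hindbrain). A single-base change outside the transcript leaves no mark in these counts, so *Fmr1* does not check the genotype labels. The tissue labels were checked with 3 marker lists. Summed forebrain markers (7 genes, *Tbr1* and *Emx1* among them) were at 324 to 419 CPM in forebrain, 196 to 332 in midbrain and 34.3 to 47.9 in hindbrain. Summed hindbrain markers (8 genes, *Gabra6* and *Pcp2* among them) were at 0.748 to 13.8 CPM in forebrain, 108 to 311 in midbrain and 432 to 947 in hindbrain, while summed midbrain markers (6 genes, *Th* and *Slc6a3* among them) were at 50.3 to 99.0 CPM in midbrain and no more than 25.7 elsewhere, although 1 of the 6, *Otx2*, was called higher in hindbrain than in midbrain. The libraries labelled midbrain thus held transcripts typical of the tissue on both sides, and the part of this in the differences below was not tested. In bulk tissue, fewer cells of a type and less RNA per cell cannot be told apart.

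Some forebrain libraries stood apart or went against their labels. The forebrain library of Fmr1CRE replicate 1 had the lowest level of all 5 genes among the forebrain libraries, and its values are described in detail further on. For the forebrain libraries labelled replicate 3, genes above 1 CPM in midbrain and hindbrain of one mouse and below 0.1 CPM in those of the same-numbered mouse of the other genotype numbered 12. Of these, 7 went the opposite way in forebrain, 1 went the same way and 4 went neither way. For replicate 1 there were 6 such genes, of which 4 went the same way and 1 the opposite way, and for replicate 2 there were 8, of which 3 went each way. The main tests of the 5 genes that use forebrain, and those of their ratios between regions, were therefore repeated without these libraries. Values of the other pathway genes, the marker lists and the correlations are given with all forebrain libraries.

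Per kilobase of effective transcript length, *Gad1* was the most abundant of the 5 genes in midbrain, at 142 ± 13.4 CPM per kb (SD, n = 6), with *Abat* next at 103 ± 13.9. In forebrain *Gad1* (96.7 ± 19.7 CPM per kb) and *Abat* (93.1 ± 29.2) differed by less than their spread, as did the same pair in hindbrain (92.9 ± 11.1 and 87.0 ± 18.5). *Slc6a11* followed at 49.5 ± 16.2 CPM per kb in forebrain, 84.3 ± 15.3 in midbrain and 49.1 ± 13.3 in hindbrain. *Gad2* stood at 41.2 ± 11 CPM per kb in forebrain, 49.6 ± 3.10 in midbrain and 23.9 ± 3.04 in hindbrain. *Slc32a1* stood at 29.8 ± 8.42, 37.8 ± 6.01 and 37.4 ± 3.56 CPM per kb in the same order. *Slc32a1* was thus the least abundant of the 5 in forebrain and midbrain, and *Gad2* in hindbrain. The length of *Gad1* is less certain than the others. Of its reads, a median of 80.8% over the 18 sets of transcript estimates (75.5 to 82.8%) were assigned to ENSMUST00000140478, which is annotated as a processed transcript, and 11.7% to the coding transcript ENSMUST00000094934. For *Gad2*, *Slc32a1*, *Slc6a11* and *Abat* at least 97.3% of reads were assigned to 1 coding transcript.

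**Figure D1:**
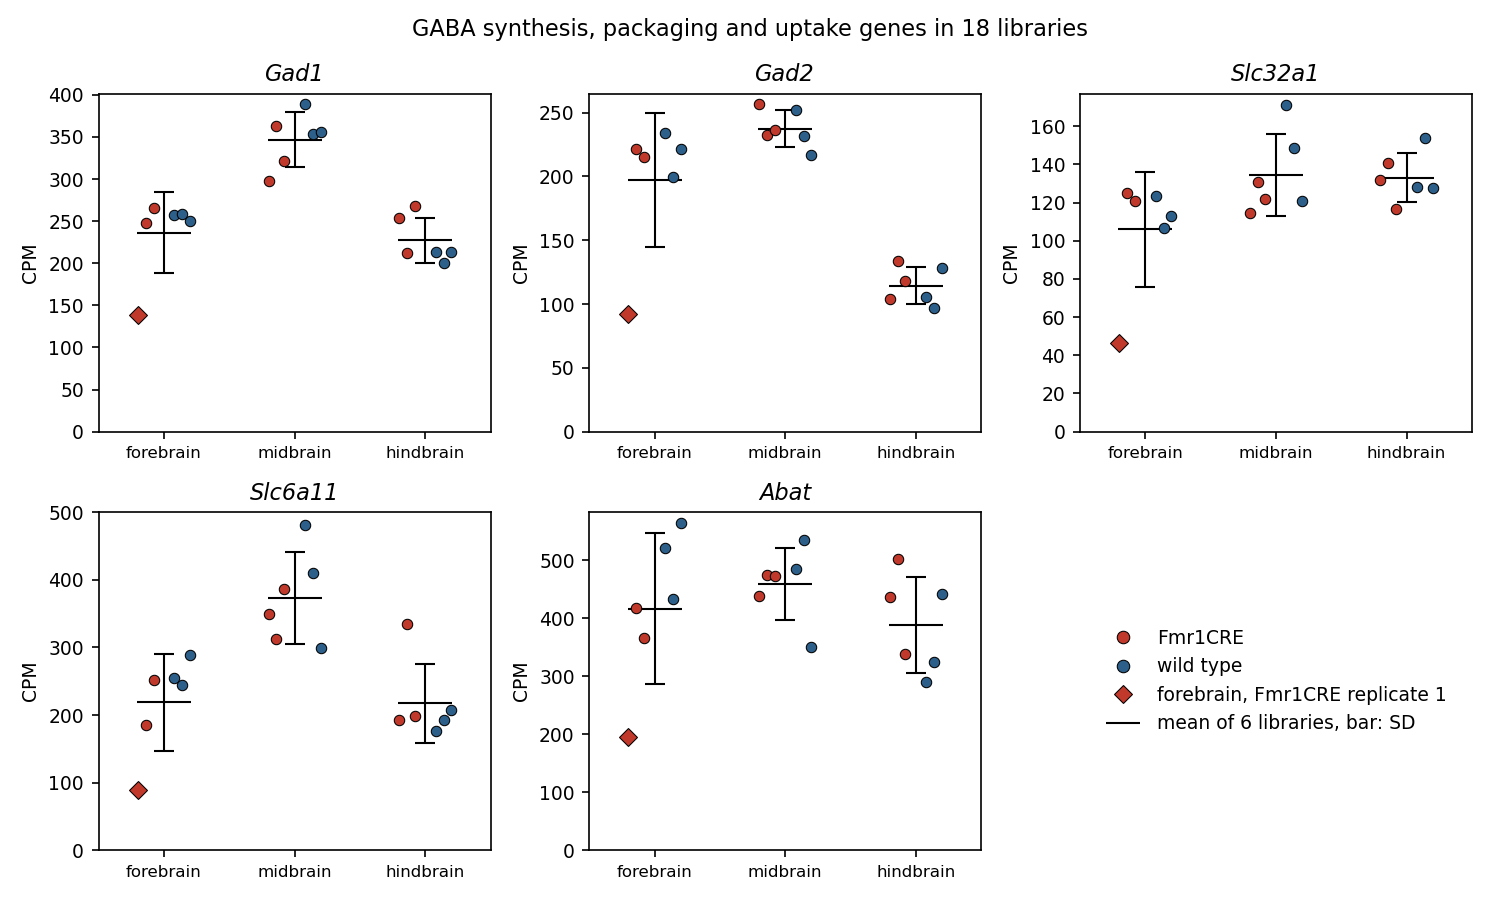
Levels of the 5 genes in CPM (vertical axes, from 0) in every library by region, with red points for Fmr1CRE and blue points for wild-type mice, and the mean of 6 libraries with its SD in black. *Gad1* lay between 297 and 389 CPM in the midbrain libraries and between 139 and 268 CPM in the others, *Gad2* was lowest in hindbrain and in 1 forebrain library, and the red diamond (forebrain, Fmr1CRE replicate 1) was the lowest forebrain value in all 5 panels.

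The first question was how the 5 genes differed between regions. *Gad1* was highest in midbrain, *Gad2* was lower in hindbrain than in both other regions, and *Slc6a11* was highest in midbrain. *Slc32a1* and *Abat* did not differ between any 2 regions beyond the spread between libraries. The tests used all 18 libraries with edgeR's quasi-likelihood test and Benjamini-Hochberg adjustment over 20363 genes. The median log2 difference over all genes was 0.02 for forebrain minus midbrain, -0.0085 for forebrain minus hindbrain and -0.03 for midbrain minus hindbrain. It was not subtracted from the differences and fold changes given.

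In forebrain the *Gad1* level ran from 139 to 266 CPM (median 254), in midbrain from 297 to 389 (median 355), and in hindbrain from 201 to 268 (median 213). Every midbrain library lay above every library of the other regions, while forebrain and hindbrain overlapped. The mean in midbrain was 347 ± 32.6 CPM (SD, n = 6), which was 1.47 times that in forebrain (log2 difference forebrain minus midbrain -0.55, SE 0.12, edgeR adjusted p = 0.00466) and 1.53 times that in hindbrain (0.61, SE 0.12, adjusted p = 0.000628). The means in forebrain (236 ± 48.1 CPM) and hindbrain (227 ± 27.1 CPM) were not separated (0.06, 95% interval -0.20 to 0.32, adjusted p = 0.718). Without the forebrain library of Fmr1CRE replicate 1, an alternative chosen after seeing the data, *Gad1* was higher in forebrain than in hindbrain by 0.18 on the log2 scale (edgeR adjusted p = 0.0464).

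*Gad2*, whose product is the form of the enzyme concentrated at nerve terminals, showed another order. Its level ran from 92.4 to 234 CPM in forebrain (median 218), from 216 to 257 in midbrain (median 234), and from 97.3 to 134 in hindbrain (median 112). Hindbrain lay below midbrain without overlap, and it lay below all forebrain libraries other than that of Fmr1CRE replicate 1. The hindbrain mean of 114 ± 14.5 CPM was lower than the forebrain mean of 197 ± 52.6 (log2 difference forebrain minus hindbrain 0.78, SE 0.16, edgeR adjusted p = 0.000745) and the midbrain mean of 237 ± 14.8 (midbrain minus hindbrain 1.05, SE 0.16, adjusted p = 6.48e-05). This was the largest difference between regions among the 5 genes, at 2.08 times. Forebrain and midbrain were not separated (-0.28, 95% interval -0.61 to 0.06, adjusted p = 0.251).

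For *Slc32a1*, the vesicular loader, the level ran from 46.4 to 125 CPM in forebrain (median 117), from 115 to 171 in midbrain (median 126), and from 117 to 154 in hindbrain (median 130). All 3 regions overlapped. The log2 differences were -0.34 (95% interval -0.72 to 0.03) for forebrain minus midbrain, -0.33 (-0.71 to 0.04) for forebrain minus hindbrain and 0.01 (-0.37 to 0.39) for midbrain minus hindbrain, with edgeR adjusted p-values of 0.194, 0.129 and 0.969. Total-count scaling in place of TMM, which moved the median of all genes to -0.15, gave a *Slc32a1* difference of -0.48 between forebrain and hindbrain (edgeR adjusted p = 0.0176).

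*Slc6a11*, the astrocytic transporter, ran from 89.4 to 288 CPM in forebrain (median 248), from 299 to 481 in midbrain (median 368), and from 176 to 335 in hindbrain (median 196). Midbrain lay above forebrain without overlap, and 5 of the 6 hindbrain libraries lay below all midbrain libraries, the exception being Fmr1CRE replicate 2. The midbrain mean of 373 ± 67.6 CPM was 1.73 times the forebrain mean of 219 ± 71.7 (forebrain minus midbrain -0.79, SE 0.20, edgeR adjusted p = 0.0121) and 1.73 times the hindbrain mean of 217 ± 58.8 (midbrain minus hindbrain 0.79, SE 0.20, adjusted p = 0.00448). The difference from forebrain was -0.70 with an edgeR adjusted p of 0.0838 without the mouse wild-type replicate 1, and -0.76 with an adjusted p of 0.0648 without wild-type replicate 2. The astrocyte marker list, which *Slc6a11* is not part of, had a summed level of 3354 to 6924 CPM and a median of 5091 in forebrain, 3338 to 4618 (median 3839) in midbrain, and 3336 to 4170 (median 3631) in hindbrain. *Slc1a2*, a glutamate transporter of astrocytes, made up most of the forebrain sum at 3563 ± 992 CPM against 2154 ± 400 in midbrain. Of the 8 markers, that gene was the 1 called higher in forebrain, *Gfap* and *S100b* were called higher in midbrain and 5 were not called (median log2 difference 0.05). Over all genes 9.38% were called higher in forebrain and 9.96% higher in midbrain. The part of this list in the *Slc6a11* differences was not tested.

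*Abat*, which removes GABA, ran from 194 to 565 CPM in forebrain (median 425), from 350 to 535 in midbrain (median 473), and from 290 to 502 in hindbrain (median 387). The 3 ranges overlapped widely. The log2 differences of -0.18, 0.07 and 0.25 for forebrain minus midbrain, forebrain minus hindbrain and midbrain minus hindbrain had edgeR adjusted p-values of 0.516, 0.759 and 0.247. Their 95% intervals were -0.54 to 0.19, -0.29 to 0.43 and -0.12 to 0.61.

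**Figure D2:**
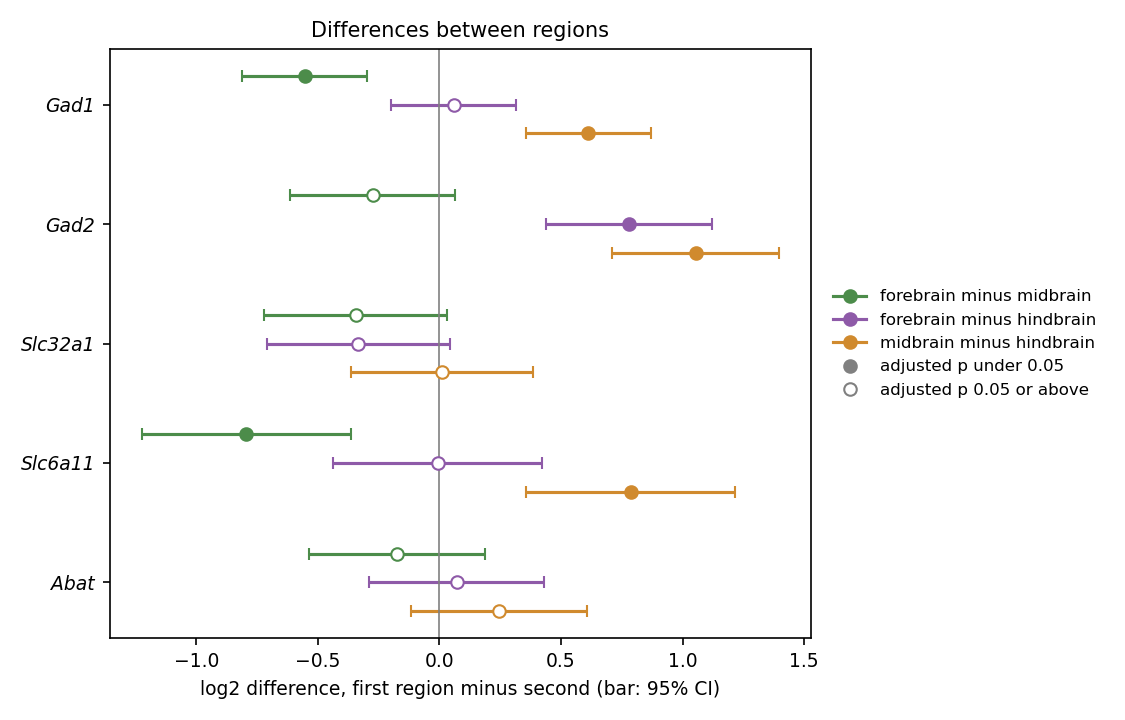
Log2 differences between regions (horizontal axis, first region minus second) for the 5 genes with 95% confidence intervals from the fit of all 18 libraries, where filled points have an edgeR adjusted p under 0.05. The called differences are *Gad1* and *Slc6a11* between forebrain and midbrain, *Gad2* between forebrain and hindbrain, and *Gad1*, *Gad2* and *Slc6a11* between midbrain and hindbrain.

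Of the 5 genes, 0 were called higher in forebrain and 2 higher in midbrain between those regions, where 9.38% and 9.96% of all genes tested were called in the same directions. Between forebrain and hindbrain 1 was called higher in forebrain and 0 higher in hindbrain, beside 26.4% and 25.3% of all genes. Between midbrain and hindbrain 3 were called higher in midbrain and 0 higher in hindbrain, beside 25.1% and 24% of all genes. These comparisons share libraries, so they are not independent of each other. With the mouse as a block, the calls of the 5 genes remained 2, 1 and 3. Without both forebrain libraries labelled replicate 3 the numbers called were again 2, 1 and 3, and *Gad1* and *Slc6a11* were then lower in forebrain than in midbrain by -0.64 and -1.01 (edgeR adjusted p = 0.00442 and 0.00464) while *Gad2* differed between forebrain and hindbrain by 0.69 (adjusted p = 0.00568). In the 9 wild-type libraries alone the numbers were 2, 3 and 3, and the 2 added calls were *Gad1* (0.28, edgeR adjusted p = 0.0208) and *Slc6a11* (0.44, adjusted p = 0.0477), both higher in forebrain than in hindbrain. In the 9 Fmr1CRE libraries alone the numbers fell to 0, 0 and 1, the last being *Gad2* between midbrain and hindbrain (0.99, edgeR adjusted p = 0.0261). Over all genes the wild-type libraries gave 1729, 8299 and 7489 calls of 19442 genes tested, and the Fmr1CRE libraries 527, 6178 and 4847 of 19434, so the calls fell across the table as well. Calls made in 1 genotype and not in the other do not show that the genotypes differ, and the test of that difference is given with the genotypes.

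Ratios between the genes within a library do not depend on how libraries were scaled, and they were compared between regions with a two-sided exact permutation test over 924 splits of 6 against 6 libraries, adjusted over 12 tests. The balance of the synthesis genes shifted from forebrain to hindbrain. The *Gad1* to *Gad2* ratio of CPM was 1.23 ± 0.155 in forebrain (1.1 to 1.5), 1.47 ± 0.178 in midbrain (1.16 to 1.64) and 2.01 ± 0.332 in hindbrain (1.59 to 2.44). Forebrain and hindbrain did not overlap, and the hindbrain ratio was 1.62 times the forebrain ratio (log2 difference -0.70, exact permutation adjusted p = 0.00866). It was 1.36 times the midbrain ratio (-0.45, adjusted p = 0.0130 by the exact permutation test), with overlap, and forebrain and midbrain were not separated at the threshold (-0.25, exact permutation adjusted p = 0.0823). Leaving out the forebrain library of Fmr1CRE replicate 1, an alternative chosen after seeing the data, made the last difference -0.31 with an exact permutation adjusted p of 0.0346.

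The level of the vesicular loader relative to the synthesis genes was higher in hindbrain. *Slc32a1* itself was not called between regions. *Gad1* and *Gad2*, which form the denominator, were both called lower in hindbrain than in midbrain, and *Gad2* lower than in forebrain. The ratio is thus not independent of those differences. *Slc32a1* divided by the sum of *Gad1* and *Gad2* was 0.241 ± 0.0228 in forebrain (0.201 to 0.267), 0.230 ± 0.0247 in midbrain (0.207 to 0.267) and 0.395 ± 0.0701 in hindbrain (0.302 to 0.516). Every hindbrain library lay above every library of the other regions. The hindbrain ratio was 1.63 times that of forebrain (log2 difference -0.70) and 1.71 times that of midbrain (-0.77), each with an exact permutation adjusted p of 0.00866. Forebrain and midbrain differed by 0.07 (exact permutation adjusted p = 0.446).

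The glycine transporters were also measured, since *Slc32a1* serves glycine too. *Slc6a5*, the transporter that marks glycinergic neurons, had 0.0790 to 0.256 CPM in forebrain, 8.08 to 44.9 in midbrain and 87.2 to 174 in hindbrain, with no overlap between regions and a log2 difference of -2.62 between midbrain and hindbrain (edgeR adjusted p = 5.86e-06). *Slc6a9*, the mainly glial glycine transporter, ran from 29.8 to 57.6, 83.8 to 125 and 89.8 to 202 CPM, with midbrain and hindbrain not separated (-0.40, edgeR adjusted p = 0.0553). Whether the glycine transporters and the *Slc32a1* ratio move together beyond the regions was not tested.

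*Abat* relative to the synthesis genes, a ratio with the same denominator, was 0.949 ± 0.158 in forebrain, 0.786 ± 0.102 in midbrain and 1.14 ± 0.223 in hindbrain. It was higher in hindbrain than in midbrain by 1.44 times (log2 difference -0.52, exact permutation adjusted p = 0.0156), a call that was lost without the mouse wild-type replicate 3 (-0.41, exact permutation adjusted p = 0.0571). The other pairs were not called (exact permutation adjusted p = 0.0942 and 0.138). Of the 9 comparisons of these 3 ratios, 5 passed. Without both forebrain libraries labelled replicate 3 the same 5 passed, with forebrain minus hindbrain at -0.67 for *Gad1* to *Gad2* and -0.72 for the *Slc32a1* ratio (exact permutation adjusted p = 0.0229 for each), and without the forebrain library of Fmr1CRE replicate 1 the number was 6. Paired by mouse, with a two-sided exact sign-flip permutation over the 6 within-mouse differences, the same 5 had the smallest p this design can give (0.0312) and an adjusted p of 0.0750, so 0 of 9 passed.

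**Figure D3:**
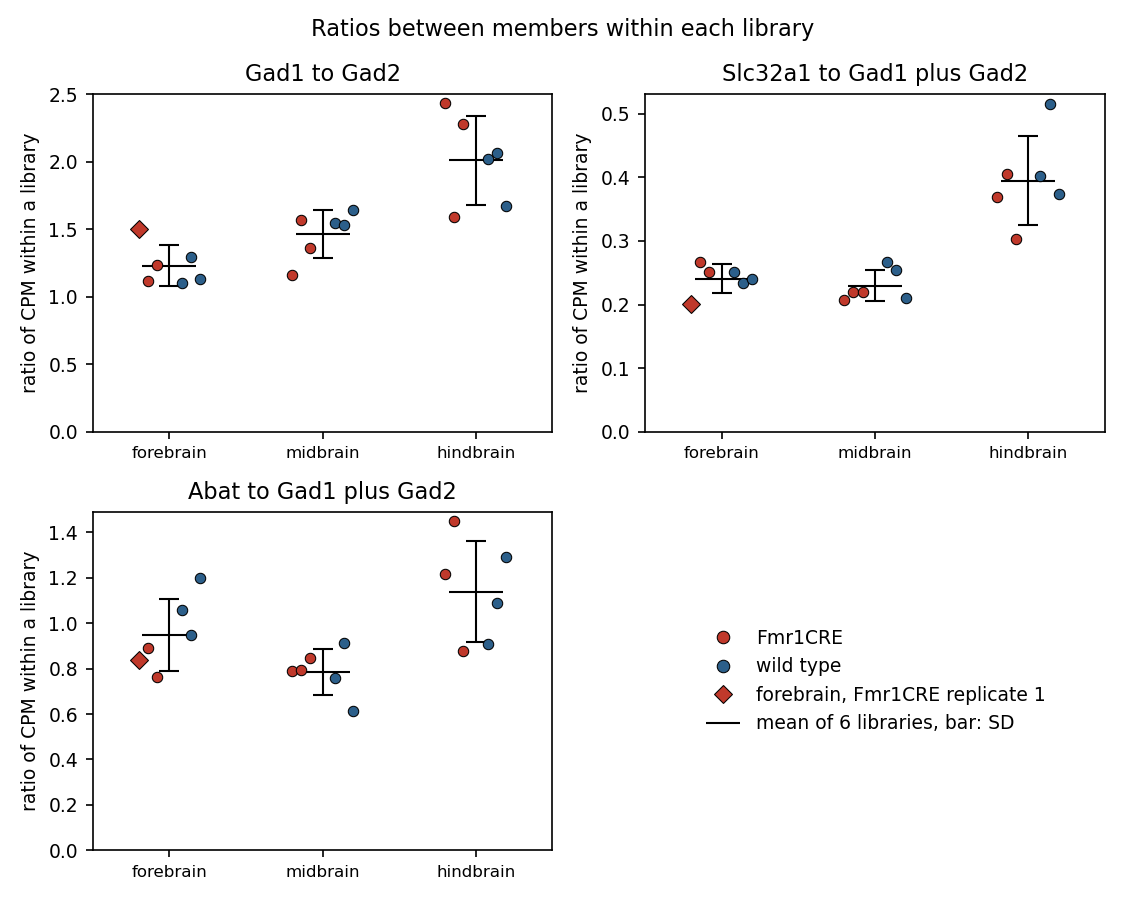
Ratios of CPM within each library (vertical axes, from 0) by region, with red points for Fmr1CRE, blue points for wild-type mice and the mean with SD over 6 libraries in black. The hindbrain points of the *Slc32a1* panel, at 0.302 to 0.516, lie above all forebrain and midbrain points, and those of the *Gad1* to *Gad2* panel, at 1.59 to 2.44, lie above all forebrain points.

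Other genes of the pathway were described by list. *Slc6a12* and *Slc6a13*, further transporters that accept GABA, were low, at means of 0.878 to 2.57 and 6.05 to 9.59 CPM. Both were called higher in midbrain than in forebrain, with log2 differences of -1.30 and -0.68 (edgeR adjusted p = 0.0173 and 0.0187), and higher in hindbrain than in forebrain, with -1.51 and -0.66 (adjusted p = 0.00200 and 0.00772). Over all genes tested the median differences were 0.02 and -0.0085.

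Downstream of *Abat*, *Aldh5a1*, which oxidizes succinic semialdehyde, had 122 ± 28.4 CPM in forebrain and 136 ± 16.3 in midbrain, and was lower in hindbrain at 91.1 ± 16.2 (forebrain minus hindbrain 0.41, edgeR adjusted p = 0.0156, and midbrain minus hindbrain 0.58, adjusted p = 0.00184). *Akr7a5*, an aldo-keto reductase of the same intermediate, was called in 0 of the 3 comparisons. *Pdxk*, which makes the pyridoxal phosphate cofactor of both decarboxylases and of the transaminase, was at 151 ± 32.2, 180 ± 30.0 and 99.6 ± 16.4 CPM and was lower in hindbrain than in forebrain (0.60, edgeR adjusted p = 0.00269) and midbrain (0.85, adjusted p = 0.000178).

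Of 7 genes that supply glutamate and glutamine, 2 were called higher in forebrain and 2 higher in hindbrain between those regions, beside 26.4% and 25.3% of all genes. Between forebrain and midbrain 0 were called higher in forebrain and 2 higher in midbrain, beside 9.38% and 9.96%. Between midbrain and hindbrain 1 was called higher in midbrain and 0 higher in hindbrain, beside 25.1% and 24%. Among the 7 genes *Glul*, the glutamine synthetase of astrocytes, had 1799 ± 332 CPM in forebrain and 1434 ± 108 in midbrain and was lower in hindbrain at 1112 ± 185 (forebrain minus hindbrain 0.69 and midbrain minus hindbrain 0.37, edgeR adjusted p = 7.4e-05 and 0.0111). *Slc38a1*, a glutamine transporter of neurons, was lower in forebrain (160 ± 33.0 CPM) than in midbrain (258 ± 23.2, edgeR adjusted p = 0.000872). A list of 3 enzymes able to make GABA without glutamate decarboxylase held *Aldh1a1*, which was higher in hindbrain (347 ± 39.7 CPM) than in midbrain (148 ± 12.9) and forebrain (97.6 ± 11.6), with log2 differences of -1.23 and -1.83 (edgeR adjusted p = 2.06e-08 and 1.22e-10) and no overlap. *Aldh9a1* was also called higher in hindbrain than in the other regions, while *Maob* was called lower in hindbrain (22.2 ± 1.69 CPM) than in forebrain (27.6 ± 4.29) and midbrain (27.2 ± 1.51), with log2 differences of 0.30 and 0.29 (edgeR adjusted p = 0.00165 and 0.00242).

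Transcription factors of GABA neurons differed by origin. Of 5 telencephalic factors (*Dlx1*, *Dlx2*, *Dlx5*, *Dlx6* and *Lhx6*), 5 were called higher in forebrain than in hindbrain, beside 26.4% of all genes, with a median log2 difference of 7.46. Their summed level was 45.7 to 92.3 CPM in forebrain, 19.4 to 39.9 in midbrain and 0.297 to 0.909 in hindbrain. Of 8 midbrain and hindbrain factors, *Gata2*, *Tal1* and *Lhx1* among them, 6 were called higher in midbrain and 0 in forebrain between that pair, beside 9.96% and 9.38% of all genes. Between forebrain and hindbrain 5 were called higher in hindbrain and 0 in forebrain, beside 25.3% and 26.4%. Summed levels of the 8 factors were 4.50 to 10.1, 34.0 to 70.8 and 29.6 to 45.7 CPM in forebrain, midbrain and hindbrain. Single factors differed in their order. *Gata2* was at means of 4.08, 4.41 and 2.91 CPM in these regions, *Tal1* at 2.12, 8.01 and 2.98, and *Lhx1* at 0.733, 10.1 and 10.1. Markers of GABAergic projection neurons also differed between regions, with striatal projection neuron markers (5 genes) at 469 to 1364 CPM in forebrain, 136 to 421 in midbrain and 153 to 212 in hindbrain, and Purkinje cell markers (4 genes) at 136 to 193, 309 to 720 and 683 to 1478 CPM. In hindbrain, where the telencephalic factors were near 0, *Gad1* and *Slc32a1* were at means of 227 and 133 CPM.

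The second question was whether Fmr1CRE changed the 5 genes in any region. In forebrain *Gad1* stood at 139, 248 and 266 CPM in Fmr1CRE replicates 1, 2 and 3 and at 257, 258 and 250 in wild-type replicates 1, 2 and 3. *Gad2* stood at 92.4, 221 and 215 CPM against 234, 199 and 221. For both, replicate 1 of Fmr1CRE was far below all others and the remaining libraries overlapped. The log2 differences, Fmr1CRE minus wild type, were -0.21 (95% interval -0.69 to 0.28) for *Gad1* and -0.29 (-0.95 to 0.38) for *Gad2*, and edgeR's quasi-likelihood test over 18467 genes gave adjusted p-values of 0.843 and 0.842.

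*Slc32a1* in forebrain was at 46.4, 125 and 121 CPM against 124, 107 and 113 (log2 difference -0.21, 95% interval -0.95 to 0.53, edgeR adjusted p = 0.887). *Slc6a11* was at 89.4, 185 and 252 CPM against 254, 244 and 288 (-0.56, -1.27 to 0.15, adjusted p = 0.806 by edgeR). *Slc32a1* overlapped between genotypes, and 2 of the 3 Fmr1CRE libraries lay below all wild-type libraries for *Slc6a11*. *Abat* was at 194, 417 and 367 CPM in Fmr1CRE and 521, 433 and 565 in wild-type libraries, so that all 3 Fmr1CRE values were below all 3 wild-type values. Its log2 difference was -0.61 (SE 0.25, 95% interval -1.20 to -0.02), which did not pass adjustment (edgeR adjusted p = 0.806). It was the one gene of the 5 without overlap in forebrain, where 10.3% of all genes tested did not overlap. This separation rests on the labels of the replicate 3 libraries (367 and 565 CPM), and it would be lost if those 2 labels were interchanged.

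In midbrain *Gad1* was at 297, 363 and 321 CPM in Fmr1CRE and 389, 354 and 356 in wild-type mice, and *Gad2* at 257, 232 and 236 against 252, 231 and 216. *Slc32a1* was at 115, 131 and 122 against 171, 149 and 121 CPM, *Slc6a11* at 349, 313 and 386 against 481, 410 and 299, and *Abat* at 438, 474 and 472 against 485, 535 and 350. The genotypes overlapped for all 5. The log2 differences lay between -0.26 for *Slc32a1* and 0.05 for *Gad2*, and edgeR's adjusted p-values over 18400 genes were 0.813 or higher.

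In hindbrain *Gad1* was at 254, 213 and 268 CPM in Fmr1CRE and 213, 201 and 214 in wild-type mice, and *Gad2* at 104, 134 and 118 against 106, 97.3 and 128. *Slc32a1* was at 132, 141 and 117 against 128, 154 and 128 CPM, *Slc6a11* at 193, 335 and 199 against 176, 192 and 208, and *Abat* at 436, 502 and 339 against 290, 324 and 441. The genotypes overlapped for all 5 here too, with 1 high *Slc6a11* value in Fmr1CRE replicate 2. The log2 differences lay between -0.08 for *Slc32a1* and 0.32 for *Slc6a11*, and edgeR's adjusted p-values over 19112 genes were 0.875 or higher. The 95% intervals reached 0.49 for *Gad1*, 0.41 for *Gad2*, 0.80 for *Slc6a11* and 0.70 for *Abat*.

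In all 3 regions 0 of the 5 genes were called between genotypes by edgeR, and 0 by DESeq2. At an unadjusted p under 0.05, 1 of the 5 passed in forebrain (*Abat*) and 0 in the other regions. Of all genes tested, edgeR called 0% in forebrain, 0.00543% in midbrain and 0% in hindbrain, that is 0, 1 and 0 genes, beside 1002, 1135 and 981 at an unadjusted p under 0.05 and 31, 62 and 60 called by DESeq2. Genes without overlap between genotypes made up 11.3% in midbrain and 10.9% in hindbrain, and of the 5 genes 0 were without overlap in either. A test of whether the genotype difference itself varied between regions, the interaction over all 18 libraries in edgeR, gave adjusted p-values of 0.660 for *Abat*, 0.680 for *Slc6a11*, 0.703 for *Gad1*, 0.796 for *Gad2* and 0.953 for *Slc32a1*. It called 0% of 20363 genes, with 1535 at an unadjusted p under 0.05 and 51 called by DESeq2. The interaction fit had no term for the mouse and so took the regions of a mouse as independent. With the mouse as a block, none of the 5 genes was called in it either.

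**Figure D4:**
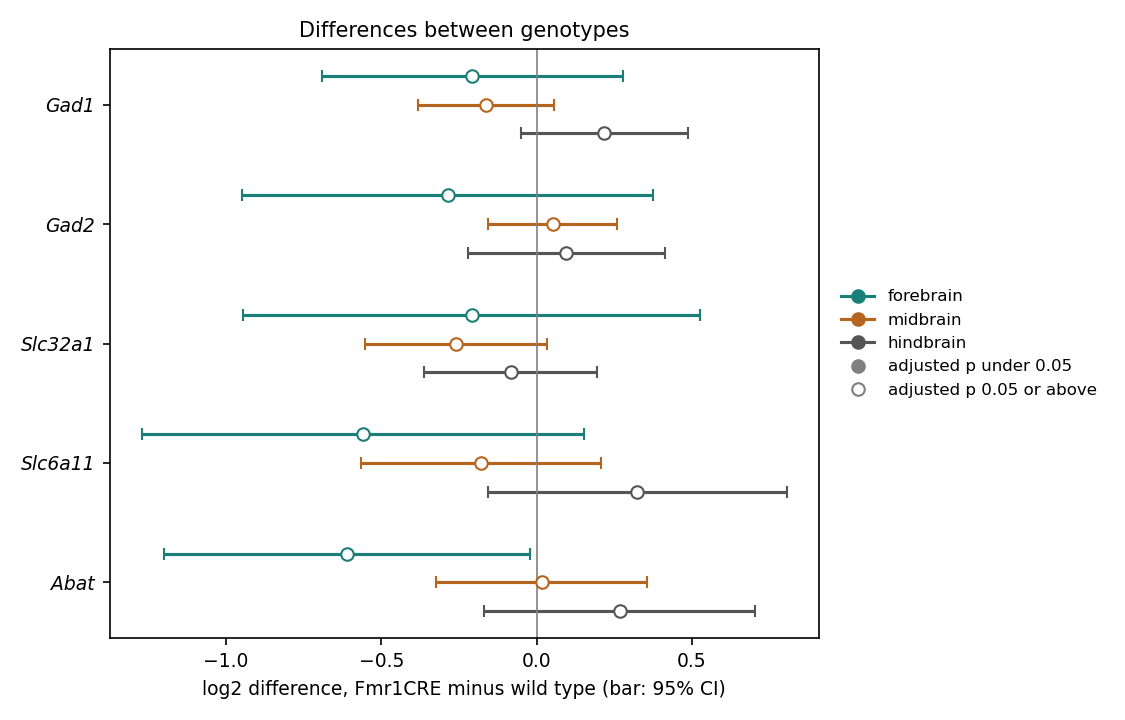
Log2 differences between genotypes (horizontal axis, Fmr1CRE minus wild type) for the 5 genes in each region, with 95% confidence intervals from the fit within the region; open points have an edgeR adjusted p of 0.05 or above. All points are open, and the forebrain interval of *Abat*, from -1.20 to -0.02, is the only one that does not reach 0.

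Without both forebrain libraries labelled replicate 3, the forebrain differences were -0.37 for *Gad1*, -0.42 for *Gad2*, -0.38 for *Slc32a1*, -0.81 for *Slc6a11* and -0.60 for *Abat*, with edgeR adjusted p-values from 0.364 to 0.711. Without the forebrain library of Fmr1CRE replicate 1 the differences of *Gad1*, *Gad2* and *Slc32a1* changed sign, to 0.02, 0.01 and 0.12, and those of *Slc6a11* and *Abat* were -0.25 and -0.36. None of the ratios was called between genotypes, but with 3 against 3 libraries the test could not have called any. The lowest p of these ratio tests, for *Abat* to the sum of *Gad1* and *Gad2* in forebrain (0.830 ± 0.0639 in Fmr1CRE and 1.07 ± 0.126 in wild type), was 0.1 by the exact permutation test, which is the smallest that 3 against 3 libraries can give, and its adjusted p was 0.720. For that ratio the Fmr1CRE values (0.839, 0.889 and 0.762) all lay below the wild-type values (1.06, 0.946 and 1.20). This separation too would be lost if the replicate 3 labels were interchanged. Without the libraries labelled replicate 3 the log2 difference of that ratio went from -0.36 to -0.21.

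The forebrain library of Fmr1CRE replicate 1 was lower than the mean of the other 5 forebrain libraries for all 5 genes. It had 54.4% of that mean for *Gad1*, 42.4% for *Gad2*, 39.4% for *Slc32a1*, 36.5% for *Slc6a11* and 42.2% for *Abat*, and on the log2 scale the 5 were 0.88 to 1.44 below it. In that library 6.14% of 18467 genes were more than 0.8 below the mean of the others on that scale, against 2.42 to 3.84% in each of the other 5 libraries, and in these 0 of the 5 genes were. The cut of 0.8 lies just under the smallest shift of the 5 genes in that library, so their passing it is a description and not a test.

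Some genes of related function were low in the same library and others were not. *Aldh5a1* had 53.5% of the mean of the others, *Pdxk* 53.9% and *Dlx1* 48.2%. The summed telencephalic factors, *Dlx1* among them, had 56.4%, with 45.7 CPM against 67.9 to 92.3 in the other 5 libraries. *Akr7a5* was at 20.2 CPM against 14.1 to 17.5 in the other 5 libraries, and *Aldh1a1* at 118 CPM against 87.6 to 104, so both were highest in this library. The summed striatal projection neuron markers had 43.2%, with 469 CPM against 917 to 1364 in the other 5 libraries, and the astrocyte markers 61.5%, with 3354 CPM against 4794 to 6924. *Slc1a2* made up most of that astrocyte sum, at 2125 CPM (55.2%). *Aldh1l1*, *Gja1*, *Slc1a3* and *Sox9* had 51.2 to 68.8%. *Gfap*, *Aqp4* and *S100b* had 104%, 97.1% and 95.1%, within the range of the other 5 libraries. The summed markers of several other cell types were not low. Interneuron markers (*Pvalb*, *Sst*, *Vip* and *Lamp5*) had 110% of the mean of the others, oligodendrocyte markers 101%, pan-neuronal markers 90.7%, choroid plexus markers 141% and blood markers 190%. Glutamatergic neuron markers had 79.3%. Single genes differed within these sums. Among the interneuron markers *Lamp5* and *Pvalb* had 138% and 116%, above all of the other 5 libraries. *Sst* had 91.4%, just below all of the other 5, and *Vip* had 86.1%, within their range. The pan-neuronal markers *Rbfox3*, *Syt1*, *Tubb3* and *Eno2* had 74.3 to 83.1% and lay below all of the other 5 libraries, while *Snap25* and *Stmn2* had 107% and 105%. Among the choroid plexus markers *Kl* had 73.4%, beside 143% for *Ttr* and 138% for *Folr1*. The part of tissue composition in the low values of this library was not tested.

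**Figure D5:**
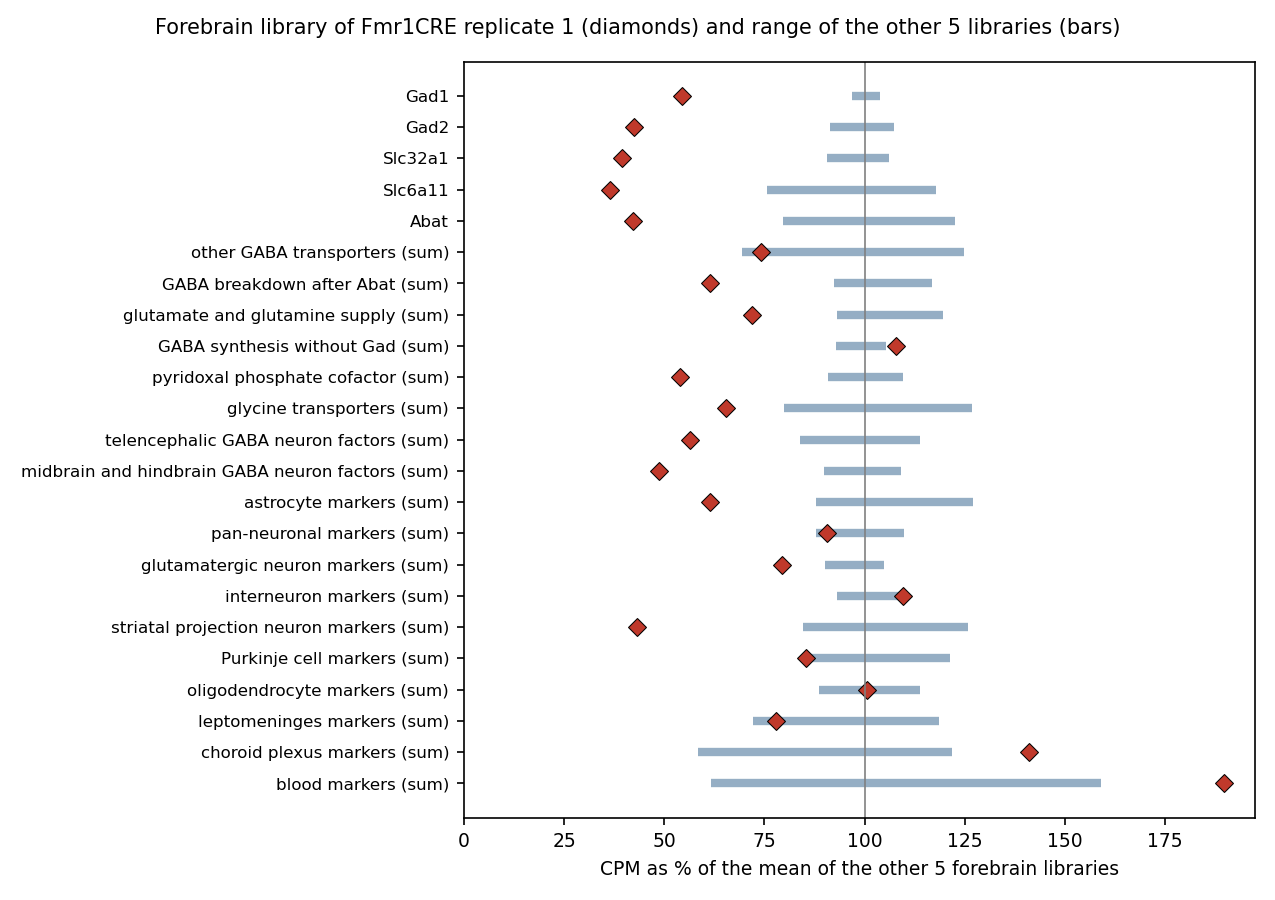
Levels in the forebrain library of Fmr1CRE replicate 1 (red diamonds) as a percentage of the mean CPM of the other 5 forebrain libraries (horizontal axis, from 0), with blue bars for the range of those 5, for each of the 5 genes and for summed gene lists. The 5 genes and the summed striatal projection neuron markers lie between 36.5 and 54.4%, to the left of their bars, while the sums of pan-neuronal, oligodendrocyte and interneuron markers lie between 90.7 and 110%.

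Across the 18 libraries, the log2 levels of the 5 genes correlated positively in every pair, from r = 0.31 for *Gad2* and *Slc32a1* to r = 0.84 for *Gad1* and *Slc6a11*. After removal of the region means the range was 0.65 to 0.86, and *Gad2* and *Slc32a1* were then at r = 0.83. These values are given as a description, since the libraries share mice and regions and 1 forebrain library is low in all 5 genes. Among 12520 genes with a mean of at least 5 CPM, those whose pattern was most like *Gad1* were *Dner* (r = 0.95), *Ptpre* (0.95) and *Dgcr2* (0.93). For *Gad2* they were *Pcdh17* (0.97), *Nipal3* (0.96) and *Akap6* (0.96), and for *Slc32a1* *Smo* (0.88), *Dlk1* (0.87) and *Vat1l* (0.86). For *Slc6a11* they were *Hcn4* (0.97), *Smoc1* (0.97) and *Fto* (0.96), and for *Abat* *Serpine2* (0.90), *Tns3* (0.88) and *Peg10* (0.87).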

How the data were processed

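Poly(A) RNA of 18 dissected brain regions was sequenced by the authors in single-end mode, in 2 pools whose members are not named in the sources used here. The authors quantified reads through the bcbio_nextgen pipeline and deposited whole-number counts per gene. The authors also deposited each library's expected counts per transcript, which are the estimated counts that salmon gives. The submitters' processing notes name Salmon 0.14.0, DESeq2 1.30.1 and mm10, while the annotation is not given in the sources used here. Deposited variance-stabilized log2 values were not used. Symbols and positions came from GENCODE M21. The 105 genes without a symbol held 0.0438% of counts.

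Library totals were 22455512 to 28061185 counts. The 95% intervals are for the estimated log2 difference and rest on the spread between these libraries. Counts were filtered with filterByExpr, scaled by TMM and tested with edgeR 4.0.16 (quasi-likelihood test, R 4.3.3, Benjamini-Hochberg threshold 0.05), separately per region for genotype and in 1 fit of all 18 libraries for regions and the interaction. DESeq2 1.42.0 was the alternative tool. Alternatives changed the scaling, the filter (none, or at least 10 counts in every library), the samples, the block and the libraries left out. Ratios were tested by exact permutation (scipy 1.17.1) with adjustment over 12 tests, and 1 ratio and some genes of the lists are not reported here. In simulated data 200 genes carried a known log2 change of 1.5. Of these, edgeR found 97.5% for 3 against 3 libraries (18097 genes, 11 false calls) and 98.5% for 6 against 6 (19950 genes, 7 false calls). With all libraries, no difference of the genes examined was as large as that change. The largest were 1.05 between regions (*Gad2*, midbrain minus hindbrain) and -0.61 between genotypes (*Abat*, forebrain, Fmr1CRE minus wild type). The share found at such smaller changes was not tested, so the simulation does not show how many of them would be missed.

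Regions were paired by mouse, since the labels give them the same animal. Deviations from group means correlated between regions of a mouse at -0.16 to 0.24 for forebrain with midbrain, -0.14 to 0.19 for forebrain with hindbrain and 0.017 to 0.165 for midbrain with hindbrain. In replicate 3 of Fmr1CRE and wild type, forebrain was at -0.060 and -0.162 with midbrain and at -0.094 and -0.142 with hindbrain. The only other negative value was -0.069, for wild-type replicate 2 with hindbrain. Tests paired or blocked by mouse still took the replicate 3 forebrain libraries by their labels.

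The 5 genes and the lists were chosen with earlier results of these data known. Named genes were the 5, those of the pathway and factor lists, and the 3 genes most correlated with each over the libraries. Cell type and region markers are given as sums, with some single genes named beside them. Expected counts per transcript served only for effective length and transcript shares, pooled over the libraries, because the transcript estimates matched the gene counts of their own sample record in 2 of 18 cases and those of the library in their name in 18 of 18.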

Additional observations from a re-analysis of the deposited data

How the results depend on the processing

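Of the single values, 599 were counted as the same under the alternatives, 13 lost a call, 6 gained one, 29 changed sign and 1 moved. Of the counts, 175 stayed within 1.5 times and 38 moved. For most values the same means an unchanged direction and side of the threshold. Values of the interaction have no direction, so there it means the side of the threshold alone. For ratios between genotypes it means a shift smaller than the SD within groups, and changes of sign were not counted. The cause of these changes was not tested. DESeq2 called 31, 62 and 60 genes between genotypes in forebrain, midbrain and hindbrain and 51 in the interaction. With no filter on low counts, 11 were called in midbrain, 11 in hindbrain and 7 in the interaction, with at least 10 counts in every library 0 in midbrain, and with all 18 libraries in 1 fit 1, 0 and 1 in the 3 regions. Leaving out 1 library gave 0 to 0, 0 to 4 and 0 to 5 genes, leaving out 1 mouse 0 to 4 in the interaction, and leaving out both forebrain libraries labelled replicate 3 gave 4 there. The genotypes share only replicate numbers (deviations of same-numbered libraries correlated at -0.25 to 0.11), and with this replicate block 0, 1 and 0 genes were called.

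Between forebrain and midbrain 1729 genes were called in wild-type libraries alone and 527 in Fmr1CRE alone, where 0 of the 5 genes were called, and 2258 to 4001 without 1 mouse, with 1 to 2 of the 5. Between forebrain and hindbrain Fmr1CRE alone gave 6178 genes and 0 of the 5, wild type alone 3 of the 5, total counts 2 of the 5, and the forebrain library of Fmr1CRE replicate 1 left out 2 of the 5, with 9077 to 9970 genes without 1 mouse. Between midbrain and hindbrain Fmr1CRE alone gave 4847 genes and 1 of the 5, with 7841 to 9693 genes without 1 mouse. The mouse as a replicate block changed no call of the 5 genes. For the ratios this paired test passed 0 of 9, and 4 to 6 passed without 1 mouse. Total-count scaling moved the median of all genes to -0.04, -0.15 and -0.11 for forebrain minus midbrain, forebrain minus hindbrain and midbrain minus hindbrain, and the share of calls higher in the first region from 48.5 to 32.2%, 51.1 to 38.9% and 51.2 to 44.1%.

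Each value counted as changed in sign was one not called with all libraries. For forebrain minus hindbrain, total counts gave *Gad1* -0.088 and *Abat* -0.073, Fmr1CRE alone *Gad1* -0.21 and *Abat* -0.42, wild type alone *Slc6a11* 0.44 (called), no replicate 3 forebrain libraries *Gad1* -0.017 and *Abat* -0.017, and no Fmr1CRE replicate 1 forebrain library *Slc6a11* 0.15. *Abat* forebrain minus midbrain was 0.15 in wild type alone. *Slc32a1* midbrain minus hindbrain was -0.00053 with DESeq2, -0.00064 with its size factors, -0.074 with total counts, -0.038 with at least 10 counts, -0.0012 with the replicate block and -0.12 in Fmr1CRE alone. Without 1 library, 1 mouse or both forebrain libraries labelled replicate 3, ranges crossing 0 were -0.37 to 0.018 for *Gad1*, -0.49 to 0.010 for *Gad2* and -0.44 to 0.12 for *Slc32a1* between forebrain genotypes, -0.14 to 0.15 for *Abat* in midbrain and -0.14 to 0.011 for *Slc32a1* in hindbrain. For forebrain minus hindbrain they were -0.030 to 0.19 for *Gad1*, -0.25 to 0.13 for *Slc6a11* and -0.046 to 0.21 for *Abat*, and for *Slc32a1* midbrain minus hindbrain -0.070 to 0.058.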
